A study of Homo sapiens with 6 samples.

Results

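Cytosolic ribosomal proteins are the protein part of the ribosome that translates nuclear-encoded mRNAs. The genes described here are those whose symbol has the form RPL or RPS with a number, alone or with A, X, L or L1 after it, plus the P-stalk genes RPLP0, RPLP1 and RPLP2 and the small subunit gene RPSA. Probe sets listing more than 1 symbol were left out, and where a gene had more than 1 probe set the brightest was taken, by its mean value on the 6 arrays. This gave 54 genes of the 11584 measured, 33 of the large subunit and 21 of the small subunit. RefSeq lists 84 protein-coding genes that match this rule, and the other 30, RPLP0, RPLP2 and RPSA among them, were not analysed here.

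The cells were HEK293 T-REx Flp-In, a human embryonic kidney line in which a LIN28B gene with a FLAG/HA tag can be switched on with doxycycline, and all 3 groups carried that transgene. The first group was mock transfected and not induced, the second was mock transfected and induced, and the third was not induced and transfected with siRNA against LIN28B; each had 2 Affymetrix Human Genome U133 Plus 2.0 arrays. The doxycycline dose in the protocol was 250 ng/ml. No group with a non-targeting siRNA was used here, so siRNA transfection and LIN28B depletion cannot be told apart. The labels do not say that replicates were separate cultures, so p-values measure only how far these arrays spread, and that spread may be technical. An RNA amount of 2 µg was labelled per array, so a value is relative to total RNA, and fewer cells of a kind and less RNA per cell cannot be told apart.

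Ribosomal protein mRNAs are among the most abundant of a growing cell. Their 5′ end is usually a terminal oligopyrimidine (TOP) tract, a C followed by further C and T bases, through which mTOR signalling and LARP1 control their translation as a group. Subunits are put together in the nucleolus with many assembly factors, and a ribosomal protein that finds no partner is usually degraded. LIN28B is an RNA-binding protein that holds back the let-7 microRNAs and also binds mRNAs. Many ribosomal protein genes have processed pseudogenes, and several have a second, related gene (names ending in L or L1). Of the 54 probe sets, 33 are of the _s_at or _x_at kind, which can pick up related transcripts.

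The RefSeq start sites (GRCh38.p14) show the feature that most members have in common. Of the 54 genes, 49 had an entry, and 33 of these, or 67.3%, had a start with C as first base and at least 4 further C or T bases, read on the gene's strand. The same was found for 7.37% of the 9476 genes on the arrays with an entry and for 5.14% of all 27305 genes with one. A gene with several annotated starts was counted if any of them matched. The 30 bases around the start are shown for all 9 of the 12 genes called with siRNA that had an entry, to set those that went down beside those that went up. The start is base 16, and capitals mark the run of C and T from it. RPS24 (chr10:78033848-78033877, plus strand) and RPL22L1 (chr3:170870181-170870210, minus strand) were lower with siRNA. RPS23 (chr5:82278340-82278369, minus strand), RPS12 (chr6:132814554-132814583, plus strand), RPS25 (chr11:119018329-119018358, minus strand) and RPL34 (chr4:108620561-108620590, plus strand) were higher. RPS28 (chr19:8321481-8321510, plus strand), lower, and RPL26L1 (chr5:172958865-172958894, plus strand), higher, had no such run at an annotated start, and nor did RPL6, lower, at either of its starts (chr12:112409271-112409300 and chr12:112411428-112411457, minus strand). RPL34 and RPL26L1 each had a second annotated start, not shown, that did not match.
RPS24: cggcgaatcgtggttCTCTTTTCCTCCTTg
RPL22L1: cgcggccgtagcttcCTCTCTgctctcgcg
RPS23: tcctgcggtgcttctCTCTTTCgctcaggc
RPS12: gcgtgcggatgaggcCTCTTTCCCTgccgc
RPS25: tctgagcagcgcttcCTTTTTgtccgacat
RPL34: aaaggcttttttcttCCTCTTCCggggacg
RPS28: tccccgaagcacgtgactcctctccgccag
RPL6, lower coordinates: ggggagacggcgcgtgcactgtgttcctgg
RPL6, higher coordinates: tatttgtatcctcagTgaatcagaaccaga
RPL26L1: ggcggggcggcggccacaaacccgcaggca
Among called genes with an entry, 2 of 4 that were lower and 4 of 5 that were higher had such a start, as did 27 of 40 that were not called. A pyrimidine start was thus found in genes that moved either way and in genes that were not called. RPL37, RPS15A and RPL39L had no entry.

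Array values are log2 expression values after GCRMA. Of the marker genes of HEK293, 6 of 7 were measured. KRT18, VIM and NEFL read above 9 on all arrays, KRT8 and ENO2 between 7.58 and 8.25, and CHGB between 5.26 and 6.39, in mock cells (5.26 to 5.60) as low as the hepatocyte marker TTR. The blood cell markers CD79A and HBB read between 4.93 and 5.38, near the bottom of the scale, and PTPRC and CD3E were not analysed here. COL1A1 of fibroblasts read 5.96 to 6.28 and TTR 5.30 to 5.59. The other listed markers of fibroblasts (COL3A1, DCN and LUM) and hepatocytes (ALB and APOA1) were not analysed here. Of the 6 HEK293 markers, limma called CHGB and KRT8 higher and NEFL and VIM lower with siRNA than in mock cells not induced, or 66.7%, where 28.0% of all genes were called. Their log2 differences were 0.98, 0.38, -0.59 and -0.18, and their part in the results was not tested. LIN28B, the siRNA target, read 10.02 and 9.85 in mock cells not induced, 10.15 and 10.11 in induced cells and 7.51 and 7.53 with siRNA. The siRNA arrays were the low ones and did not overlap the rest (log2 difference -2.42, SE 0.078, limma adjusted p = 5.02e-07). With induction the LIN28B difference was 0.19 (limma adjusted p = 0.999), and the induced arrays did not overlap those not induced.

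The comparison of siRNA with mock cells not induced asks which transcripts differ between cells given siRNA against LIN28B and mock-transfected cells. Most ribosomal protein genes differed little. Of 54, limma called 5 higher and 7 lower at an adjusted p under 0.05, or 22.2%, while 28.0% of all 11584 genes were called, 13.5% higher and 14.5% lower. The median log2 difference of the members was -0.004, against 0.006 for all genes, and 27 members lay on each side of 0. The sign of the members' median turned when each array was centred on its own median: it was then 0.02, and 7 members were called higher and 5 lower. With this centring 35 members lay above 0 and 19 below it. The median of all genes rose as well, to 0.036, and 29.0% of them were called, 1836 higher and 1521 lower. A difference beyond 0.2 in size was seen in 9 members, or 16.7%, and in 51.4% of all genes. The large subunit had 2 genes higher and 4 lower of 33, and the small subunit 3 higher and 3 lower of 21. By kind of probe set, 33.3% of the 21 members read by plain _at sets were called, beside 28.1% of all genes read by such sets. Of the 33 members read by _s_at or _x_at sets 15.2% were called. Differences beyond 0.2 were seen in 28.6% and 9.09% of these members. The part of the probe set kind in the share called was not tested. Without siRNA replicate 2, 6 members were called, 1 higher and 5 lower, and 17.0% of all genes.

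**Figure D1:**
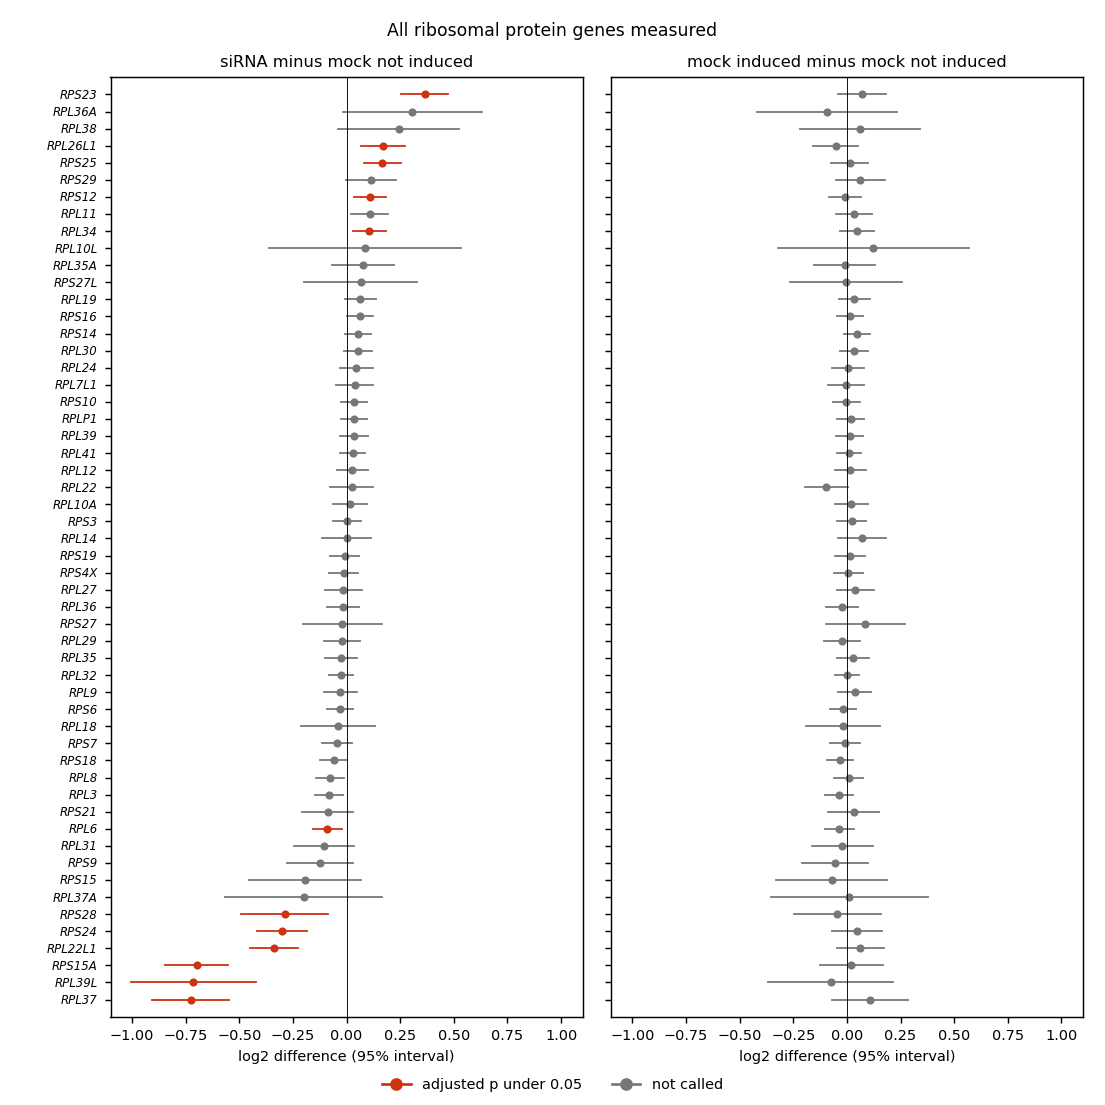
Log2 difference with 95% interval from limma for each of the 54 ribosomal protein genes, siRNA minus mock not induced (left) and mock induced minus mock not induced (right), in the order of the left panel; red marks an adjusted p under 0.05. On the left 7 red genes lie below 0 and 5 above it, and on the right none is red.

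RPL37, a large subunit protein with a zinc finger, had the largest difference. Its probe set (224767_at) read 8.88 and 8.96 in mock cells not induced, 8.9999 and 9.06 with induction and 8.23 and 8.15 with siRNA. Both siRNA arrays lay below all 4 mock arrays. The fall was 0.73 on the log2 scale, to 60.4% of the mock level (SE 0.08, limma adjusted p = 0.000233). What part or form of a transcript this set, or any other called set, reads was not looked up.

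RPS15A, of the small subunit, fell by a similar amount. It read 9.83 and 9.85 without induction, 9.90 and 9.83 with it, and 9.11 and 9.18 with siRNA (probe set 235309_at). The siRNA arrays were again apart from every mock array. The log2 difference was -0.70 (SE 0.066, limma adjusted p = 0.000123), or 61.6% of the mock level.

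RPS24, a small subunit protein whose gene is mutated in some patients with Diamond-Blackfan anaemia, read 11.35 and 11.34 without induction, 11.36 and 11.43 with it, and 11.00 and 11.09 with siRNA. The groups did not overlap, and the log2 difference was -0.30 (SE 0.052, limma adjusted p = 0.0025). Without an intensity trend in the variance estimate the adjusted p was 0.0501. RPS28, also of the small subunit, read 8.09 and 8.23 without induction, 8.10 and 8.13 with it, and 7.90 and 7.84 with siRNA. Its difference of -0.29 (limma adjusted p = 0.0404) lost the call without either siRNA array, without either induced array and without the second mock array not induced, with adjusted p from 0.0771 to 0.177. RPL6, of the large subunit, read 13.19 and 13.18 without induction and 13.10 and 13.08 with siRNA. That difference of -0.09 (limma adjusted p = 0.0485) lost its call when any 1 of the 6 arrays was left out (adjusted p = 0.072 to 0.188).

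RPS23 was the member with the largest rise. It sits at the decoding centre of the small subunit. Its probe set (227722_at) read 10.90 on both mock arrays not induced, 10.99 and 10.95 with induction and 11.30 and 11.23 with siRNA. The siRNA arrays were above the other 4, and the log2 difference was 0.36 (SE 0.049, limma adjusted p = 0.000723), or 129% of the mock level.

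RPS25, which is needed for translation from some viral internal ribosome entry sites, read 12.016 and 11.995 without induction, 11.998 and 12.039 with it, and 12.165 and 12.179 with siRNA. The siRNA arrays were the high ones. Its rise of 0.17 (SE 0.038, limma adjusted p = 0.0101) lost the call without siRNA replicate 1 (adjusted p = 0.0534) or 2 (0.0628). RPS12 read 13.45 on both mock arrays not induced, 13.42 and 13.47 with induction, and 13.52 and 13.59 with siRNA. Here too the groups were apart, by a smaller step.

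The difference in RPS12 was 0.11 (limma adjusted p = 0.0374), which did not pass without either mock array not induced or without siRNA replicate 2, where it was 0.07. RPL34, of the large subunit, read 13.16 and 13.18 without induction, 13.24 and 13.19 with it, and 13.24 and 13.31 with siRNA. The siRNA and induced arrays thus met at 13.24. Its difference from the cells not induced, 0.11 (limma adjusted p = 0.0472), did not pass without any 1 of the mock arrays or without siRNA replicate 2, where it was 0.07 (adjusted p = 0.268).

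**Figure D2:**
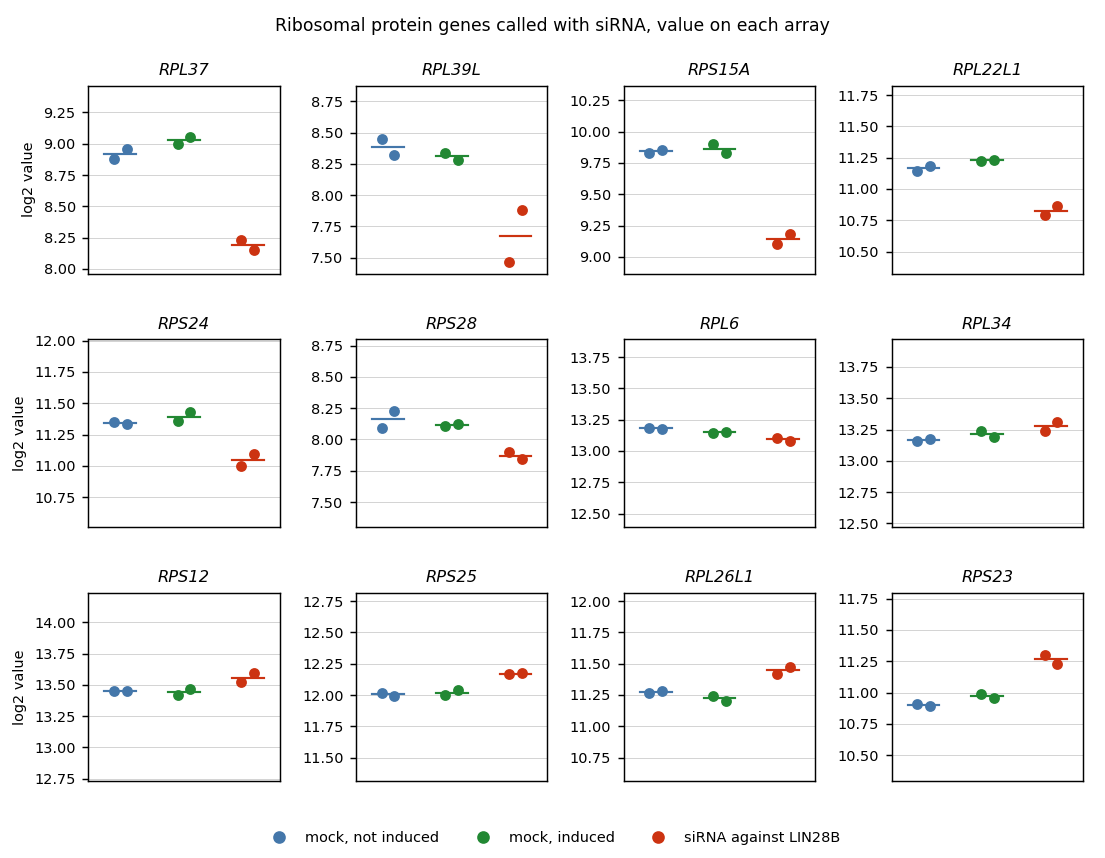
Log2 value on each of the 6 arrays (points) and group mean (bars) for the 12 ribosomal protein genes called with siRNA, ordered from the largest fall to the largest rise; each panel spans 1.5 log2 units. RPL37, RPL39L and RPS15A show the largest steps down and RPS23 the largest step up, while RPL6, RPL34 and RPS12 differ by about 0.1.

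Of the 12 called genes, 3 encode paralogs of a standard ribosomal protein. RPL22L1, which can take the place of RPL22 in the large subunit, read 11.14 and 11.19 without induction, 11.22 and 11.23 with it, and 10.79 and 10.86 with siRNA. Both siRNA arrays were below the rest (log2 difference -0.34, SE 0.049, limma adjusted p = 0.0011), a level 79.1% of that in mock cells. RPL22 itself read 13.27 and 13.12 without induction and 13.22 and 13.21 with siRNA, and its groups overlapped (0.02, 95% interval -0.08 to 0.13, limma adjusted p = 0.752).

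RPL39L, a paralog of RPL39 known best from the testis and from tumour cells, read 8.45 and 8.32 without induction, 8.34 and 8.28 with it, and 7.46 and 7.88 with siRNA. The 2 siRNA arrays differed by 0.42 from each other, the widest gap between replicates of any member in that group, and both were below the mock arrays. The log2 difference was -0.71 (SE 0.13, limma adjusted p = 0.00316), or 61.0% of the mock level. RPL39 differed by 0.03 (95% interval -0.03 to 0.10, limma adjusted p = 0.403), with siRNA arrays at 13.78 and 13.82 and mock arrays not induced at 13.75 and 13.78.

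RPL26L1 read 11.27 and 11.28 without induction, 11.24 and 11.20 with it, and 11.42 and 11.48 with siRNA. Its groups were apart, with siRNA on top (log2 difference 0.17, SE 0.046, limma adjusted p = 0.021). The call was lost without siRNA replicate 1 (adjusted p = 0.0545) or 2 (0.139). RPL26, its parent gene, was not analysed here.

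The other paralogs had no call, and RPL7 and RPL10, parents of 2 of them, were not analysed here. RPL7L1, a homologue of RPL7 with a role in ribosome assembly, differed by 0.04 (limma adjusted p = 0.506). RPS27L, a p53-responsive relative of RPS27, read 8.68 and 8.74 without induction and 8.62 and 8.93 with siRNA, a difference of 0.07 (limma adjusted p = 0.726). Its parent RPS27 differed by -0.02 (limma adjusted p = 0.884). RPL10L, a testis gene that stands in for RPL10, read 5.03 to 5.45 over the 6 arrays, near the bottom of the scale, and its groups overlapped. Whether a paralog's change differs from its parent's was not tested.

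RPL36A and RPL38, both of the large subunit, had differences beyond 0.2 without a call. RPL36A read 7.58 and 7.66 without induction, 7.74 and 7.32 with it, and 7.80 and 8.05 with siRNA (0.31, SE 0.15, limma adjusted p = 0.148). RPL38 read 10.39 and 10.65 without induction, 10.37 and 10.79 with it, and 10.71 and 10.82 with siRNA (0.24, limma adjusted p = 0.183), and its siRNA and induced arrays overlapped. Both were chosen for their size after their values were seen.

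Of members not called, those of smallest unadjusted p were RPL11, RPL3, RPL8, RPS16, RPS18 and RPS29. RPL11, which with RPL5 binds MDM2 when ribosome assembly is disturbed, read 13.19 and 13.27 without induction and 13.30 and 13.38 with siRNA (log2 difference 0.11, limma adjusted p = 0.0608). RPL3 and RPL8, both near the peptidyl transferase centre, differed by -0.08 each (limma adjusted p = 0.0623 and 0.0854). RPS16 differed by 0.06 and RPS18 by -0.06 (limma adjusted p = 0.124 and 0.13). RPS29 had 0.11 (limma adjusted p = 0.135), but 0.03 without the first and 0.20 (adjusted p = 0.00912) without the second mock array not induced, which read 12.95 and 13.13. RPL11 was called without the second mock array not induced (0.15, adjusted p = 0.0393). It had 0.07 without the first of these arrays or without siRNA replicate 2.

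Members high on the scale differed less than members lower on it. The members' means over the 6 arrays ran from 5.23 to 14.1 with a median of 13.1, higher than 99.6% of all genes measured. Among the 35 members with a mean over 12, all differences lay between -0.09 and 0.17, and 4 were called, or 11.4%. The 111 other genes with a mean over 12 had 43.2% called, with a median absolute difference of 0.10 against 0.035 for the members. Among the 19 members at 12 or under, differences ran from -0.73 to 0.36 and 8 were called, or 42.1%, against 27.9% of other genes there. The value 12 was chosen after the data were seen. How far the top of the scale compresses differences was not tested. The level of a probe set depends on its probes as well as on its transcript, so these levels do not rank the genes. The sets of RPL37, RPS15A and RPS23 had means of 8.71, 9.62 and 11.0, below the members' median. Whether they read the main mRNA of their gene or a minor form was not tested.

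**Figure D3:**
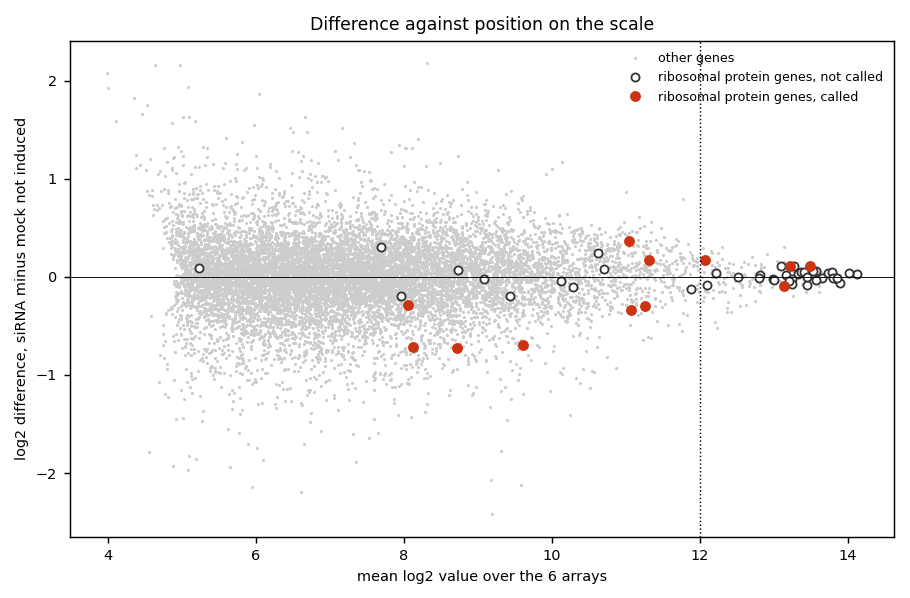
Log2 difference, siRNA minus mock not induced, against the mean log2 value over the 6 arrays for the 54 ribosomal protein genes (circles, filled red where called) and all other genes (grey points); the dotted line is at 12. The 35 members to the right of the line lie between -0.09 and 0.17, and the largest differences of members lie to the left of it.

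The variance estimate followed a trend with intensity, and the median SE was 0.038 for members and 0.123 for all genes. Without the trend 5 members were called in place of 12, namely RPL37, RPS15A, RPL39L, RPL22L1 and RPS23, and 22.3% of all genes. These 5 also kept their calls under every other alternative tried for this comparison.

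RPL36, the only member with more than 1 single-symbol probe set, was read at 12.78 and 12.83 without induction and 12.80 and 12.79 with siRNA by its brighter set. The dimmer set ranged from 3.23 to 5.77 over the arrays, with replicates of the induced group at 4.75 and 3.23, and differed by 0.33 with siRNA (SE 0.47, limma adjusted p = 0.648). With induction the dimmer set differed by -1.16 (limma adjusted p = 0.999), and siRNA against the induced arrays gave 1.49 (SE 0.47, limma adjusted p = 0.0397), a call that the brighter set did not have (0.01, adjusted p = 0.903).

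The mock arrays labelled induced were compared with those not induced. The LIN28B probe set read higher on both induced arrays than on both arrays not induced, but the difference of 0.19 given above was not called. Whether this set reads the transgene's mRNA was not tested. No ribosomal protein gene was called by limma, and 0% of all genes were (0 of 11584 genes). At an unadjusted p under 0.05 there were 0 members and 344 genes in all. Member differences ran from -0.10 for RPL22 to 0.12 for RPL10L, with a median of 0.01 against -0.005 for all genes. For the 35 members with a mean over 12 the 95% intervals stayed between -0.20 and 0.18. For the 19 members at 12 or under they reached from -0.42 to 0.57. The members of smallest p outside the called genes were RPL22, RPS14 and RPL14. RPL22 read 13.08 and 13.11 with induction and 13.27 and 13.12 without (difference -0.10, unadjusted p = 0.0644, limma adjusted p = 0.999). RPS14, a small subunit protein of the platform, read 13.82 and 13.79 with induction and 13.75 and 13.77 without, so its groups did not overlap (difference 0.05, unadjusted p = 0.112). RPL14 read 12.54 and 12.58 with and 12.42 and 12.57 without, and its groups overlapped. When replicate 2 of the mock arrays not induced was dropped, 1 gene in all was called; no member was called when any array was left out.

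With the induced mock arrays as the control, the siRNA arrays gave 4 members higher and 5 lower, or 16.7%, against 28.4% of all genes (14.0% higher and 14.5% lower). Of the 35 members with a mean over 12, 5.71% were called, and of other genes there 38.7%. This comparison uses the same 2 siRNA arrays as the first, so the values below are set beside those above and are no second test. The falls were 0.84 for RPL37, 0.72 for RPS15A, 0.64 for RPL39L, 0.40 for RPL22L1 and 0.35 for RPS24. The rises were 0.29 for RPS23, 0.22 for RPL26L1, 0.15 for RPS25 and 0.12 for RPS12. RPS28 had -0.24 (limma adjusted p = 0.0724), RPL34 0.06 (0.243) and RPL6 -0.05 (0.201), none of which passed. This contrast is also the test of whether the siRNA and induction differences of a gene differ.

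Genes that build, regulate or service ribosomes were taken as lists chosen by known role. Of 121 ribosome biogenesis factors, 38 were lower and 8 higher with siRNA than in mock cells not induced, with a median of -0.12; 38.0% were called, beside 28.0% of all genes. RRP1B, a nucleolar protein of late rRNA processing, fell by 1.24 (SE 0.13). NOB1, the endonuclease that makes the final cut of small subunit rRNA, fell by 0.86, and the GTPase gene BMS1 by 0.77. RSL1D1, a nucleolar protein, rose by 0.96 (SE 0.09). The largest limma adjusted p of these 4 was 0.000333. Counts fell to 20 lower and 7 higher without siRNA replicate 1 and to 24 lower and 6 higher without replicate 2, where 14.4% and 17.0% of all genes were called. Against the induced mock arrays 32 of the factors were lower and 12 higher, or 36.4%, with a median of -0.08, where 28.4% of all genes were called. With induction 0 of the factors were called, with a median of -0.03 against -0.005 for all genes. Of the factors with an entry for their start, 8.41% had a pyrimidine start.

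**Figure D4:**
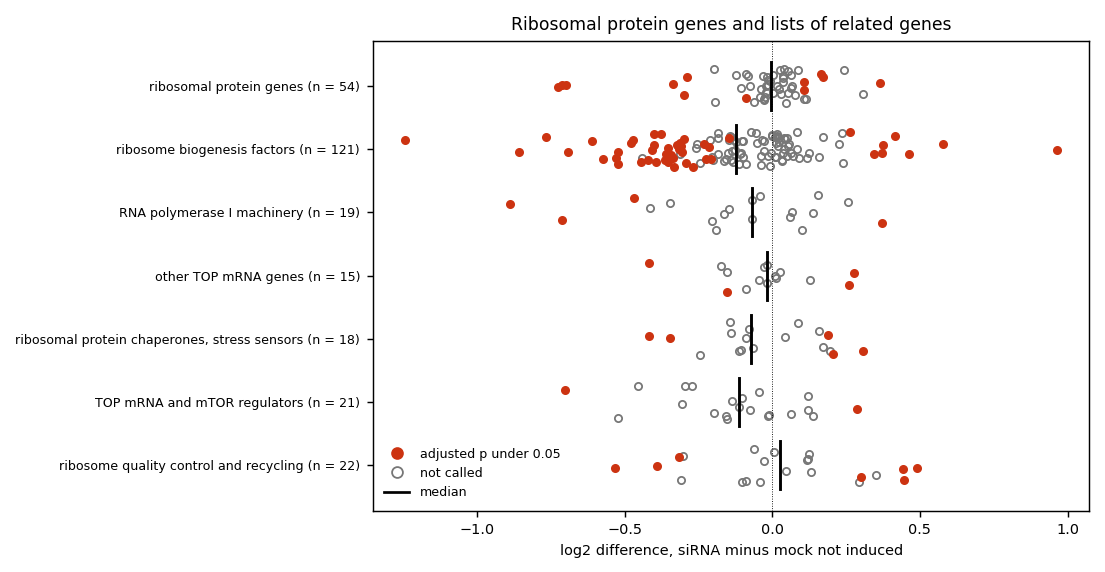
Log2 difference, siRNA minus mock not induced, for the 54 ribosomal protein genes and 6 lists of related genes; each circle is a gene, filled red at an adjusted p under 0.05, spread vertically at random, and black bars are medians. Biogenesis factors have 38 red points on the left and 8 on the right, while the ribosomal protein genes have 7 and 5.

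Of 19 genes of RNA polymerase I, which transcribes rRNA, 4 were lower and 2 higher with the induced mock arrays as the control. This was 31.6%, beside 28.4% of all genes. Against the mock arrays not induced 3 were lower and 1 higher, or 21.1%, beside 28.0% of all genes. The subunit genes POLR1F, POLR1E and POLR2E fell by 0.89, 0.71 and 0.47, and POLR1H rose by 0.37 (limma adjusted p at most 0.00257). Without the first mock array not induced the counts were 5 lower and 2 higher, with 27.1% of all genes called.

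Of 26 other genes known or listed for TOP mRNAs, 15 were analysed here. With the induced mock arrays as the control 2 of the 15 rose and 3 fell. This was 33.3%, beside 28.4% of all genes. Against the mock arrays not induced 2 rose and 2 fell, or 26.7%, near the 28.0% of all genes. The median against these arrays was -0.02, and 0.01 with arrays centred. The initiation factor genes EIF4B and EIF3H rose by 0.28 and 0.26. NAP1L1, a histone chaperone, fell by 0.42 and the cyclin gene CCNG1 by 0.15. CCNG1 lost its call without either siRNA array or the first mock array not induced (adjusted p = 0.0548 to 0.131), and EIF4B without siRNA replicate 2 (0.0574). The list then had 2 rises and 1 fall without siRNA replicate 1, and 1 of each without replicate 2, where 14.4% and 17.0% of all genes were called. Of these 15, 10 had a start entry and 9 a pyrimidine start.

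Of 18 chaperones and sensors of ribosomal proteins, 5 rose and 2 fell with the induced mock arrays as the control. This was 38.9%, beside 28.4% of all genes. Against the mock arrays not induced 3 rose and 2 fell, or 27.8%, near the 28.0% of all genes. NAP1L1 is in this list too, and the import receptor gene IPO5 fell by 0.35. PDCD2L rose by 0.31 and BCCIP by 0.21; BCCIP lost its call when any 1 array was left out (adjusted p = 0.0543 to 0.163). The rises ranged from 1 to 3 and the falls from 2 to 3 over those fits, and there was 1 rise without either induced array (24.1% of all genes called) or either siRNA array (14.4% and 17.0%).

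Of 21 TOP mRNA and mTOR regulators, 2 rose and 3 fell with the induced mock arrays as the control. This was 23.8%, beside 28.4% of all genes. Against the mock arrays not induced 1 rose and 1 fell, or 9.52%, beside 28.0% of all genes. MLST8, a subunit of both mTOR complexes, fell by 0.70 (SE 0.08, limma adjusted p = 0.000298). TSC1, which restrains mTOR, rose by 0.29 (limma adjusted p = 0.0338) and was called only with all arrays or without the second mock array not induced. Without the first mock array not induced 0 rose and 4 fell, with 27.1% of all genes called. Without the second of those arrays (25.5%) or either induced array (24.1%) 2 fell.

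Of 22 genes of ribosome quality control and recycling, 5 rose and 2 fell with the induced mock arrays as the control. This was 31.8%, beside 28.4% of all genes. Against the mock arrays not induced 4 rose and 3 fell, also 31.8%, near the 28.0% of all genes. DDRGK1, of the UFM1 pathway that acts on stalled ribosomes at the ER, rose by 0.49, TRIP4 by 0.45 and EIF2D, a recycling factor, by 0.44. LTN1, the ubiquitin ligase of the 60S quality control complex, fell by 0.53 (limma adjusted p = 0.0214), and lost the call without the first mock array not induced (-0.35) or siRNA replicate 1 (-0.40). TRIP4 lost it without siRNA replicate 2 (0.38, adjusted p = 0.086). The falls were 0 without siRNA replicate 1, with 14.4% of all genes called, and 1 without either induced array (24.1%) or the first mock array not induced (27.1%). Without siRNA replicate 2 there was 1 fall and there were 2 rises, with 17.0% of all genes called.

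RPL36AL and FAU, ribosomal protein genes that the symbol form leaves out, were also measured. RPL36AL rose by 0.27 (SE 0.048, limma adjusted p = 0.00266), from 11.54 and 11.49 to 11.78 and 11.79. FAU, which encodes a ubiquitin-like protein fused to a small subunit protein, read 13.13 and 13.08 without induction and 13.08 and 13.05 with siRNA, a difference of -0.05.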

How the data were processed

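The deposited log2 values, 1 for each probe set and array, were made by the authors with affy and GCRMA per the submitters' processing notes; versions, and the rule that kept 13008 probe sets, are not given in the sources used here. Base 2, which GCRMA returns, was assumed. Gene names came from the platform annotation, with symbols updated by gene identifier to RefSeq (GRCh38.p14); 11719 had 1 symbol, 609 several and 680 none listed, and 11578 of 11584 genes matched. A filter (above 4 on at least 2 arrays) removed 0 genes. Of the 13008 probe sets kept by the authors, 13007 already read above 5 on at least 2 arrays. One model of 3 groups over all 6 arrays was fitted with limma 3.58.1 in R 4.3.3 (lmFit, eBayes with trend; 3 residual and 6.73 prior degrees of freedom; two-sided; Benjamini-Hochberg over all genes) and checked on simulated data; "called" means an adjusted p under 0.05. Array medians lay between 7.126 and 7.177, and the number of arrays limits the precision. SE is the model's standard error.

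The members and lists were chosen with earlier results of these data known. Named were LIN28B, every member called in any comparison, the 6 uncalled members of smallest p with siRNA and the 3 with induction, paralogs and their parents, members with several probe sets, and up to 4 called genes of largest change per list. FAU, the marker genes and others outside the rule were picked after their values were seen. Alternatives were 2 scalings, 4 arrays only, a replicate block, other variance estimates, filters, probe set choices and thresholds, and leaving out each array.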

Additional observations from a re-analysis of the deposited data

How the results depend on the processing

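For the siRNA against mock not induced comparison, 3242 genes in all became 2122 with only _at probe sets and 1767 at an adjusted p under 0.01, and ranged from 1664 to 3143 when 1 array was left out. The 12 members became 5 without the variance trend, where 22.3% of all genes were called, and 6 at an adjusted p under 0.01 (15.3%). With only _at probe sets, where 33 members drop out, 6 of the 21 left were called, beside 27.9% of all genes. Fewer members, and fewer genes in all, were called when any 1 array was left out. Against the induced mock arrays, 3295 genes became 2167 with only _at probe sets and 1819 at the stricter p, and 1702 to 3951 without 1 array; the 9 members stayed within 1.5 times. For induction, 0 genes ranged from 0 to 1 without 1 array. The members' medians moved by less than the spread between arrays of a group under every alternative. Of 1907 values of single genes under alternatives, 94 lost a call, 20 gained one and 0 changed sign with a call. The labels do not say whether the replicate number is a pairing, and 2 arrays per group cannot decide it. Same-numbered arrays' deviations correlated at 0.181 between the mock groups. The correlation was -0.0568 between mock not induced and siRNA and 0.0155 between induced and siRNA. With the replicate number as a block 12 members and 29.5% of all genes were called with siRNA. These members were 10 of the 12 above, with RPL34 and RPL6 lost and RPL11 and RPL38 gained. Array values have no read depth. Signal near the bottom of the scale limits RPL10L and the dimmer RPL36 set. Most other members read near the top of the scale, and whether that limits their differences was not tested.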

Other observations

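A further 22 probe sets listed several symbols, at least 1 of them a ribosomal protein gene, and so name no single gene. They were looked at after the values of the members were seen. With siRNA 4 of them were higher and 2 lower than in mock cells not induced (limma over all 13008 probe sets, of which 27.7% were called), with a median log2 difference of 0.01 and a range from -0.18 to 0.91. With induction none of the 22 was called, as was none of the 13008 probe sets. Their means over the arrays ran from 7.31 to 14.24.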
